A study of Mus musculus with 29 samples.

Results

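The genes described here were 31 complement components, regulators and receptors, found among the 54532 genes of the count table by matching their Ensembl identifiers to the symbols C1qa, C1qb, C1qc, C1ra, C1s1, C1rl, C2, C4a and C4b (classical pathway), Masp1 and Masp2 (lectin pathway), C3, Cfb, Cfd and Cfp (alternative pathway), Hc, C6, C7 and C8g (terminal pathway), Cfi, Cd55, Cd59a, Cr1l and Clu (regulators) and C3ar1, C5ar1, C5ar2, Itgam, Itgax, Itgb2 and Vsig4 (receptors). Of these, 29 reached a mean count of 3 over all mice and were tested, and Hc and Cfi did not. RNA of colon segments from 29 mice was sequenced as poly(A) RNA, 1 library per mouse, in 6 colitis models and 3 groups of untreated controls. TRUC mice (n = 4, labelled Balb/C Tbx21-/- x Rag2-/-, untreated) develop colitis without an added agent and were compared with untreated Balb/C Rag2-/- mice (n = 3). DSS (n = 3, 3% in drinking water for 5 days, culled at day 10), DNBS (n = 3, 3 mg given rectally in 50% ethanol) and IL-10 blockade (n = 4, labelled as given an IL10 blocking antibody, where the protocol names 750 µg against the IL-10 receptor and culling after 4 weeks) were labelled Balb/C and compared with untreated Balb/C mice, called wild-type controls here (n = 3). TCT (n = 3, transfer of 500000 naive CD4+ T cells, culled after 6 to 8 weeks) and anti-CD40 (n = 3, 50 µg of agonist antibody, culled after 7 days) were labelled C57BL/6 Rag1-/- and compared with untreated mice of that label (n = 3). All mice of the TRUC, TCT, anti-CD40, Rag1-/- and Rag2-/- groups thus lacked a recombinase by their labels, and hosts of such genotypes make no mature T or B cells of their own. The TCT hosts were 8 to 10 weeks old by the protocol, and no age is given here for the other groups.

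Complement is a cascade of serum and tissue proteins. C1q, built of C1qa, C1qb and C1qc chains, binds antibody or other surfaces and activates the proteases C1r and C1s, which cleave C4 and C2 to form a C3 convertase. The lectin pathway reaches the same step through Masp proteases, and the alternative pathway through factor B (Cfb), factor D (Cfd) and properdin (Cfp). Cleaved C3 coats targets and yields the C3a fragment, C5 (the Hc gene in mice) yields C5a, and C6 to C9 build the membrane attack complex. The liver makes most circulating complement, while macrophages, fibroblasts and gut epithelium also express parts of it.

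The labels were checked against genes with a known pattern. H2-Ea-ps, the E-alpha gene that mice of the H2-b haplotype such as C57BL/6 do not transcribe, was at 78.5, 74.5 and 67.7 CPM in the mice labelled C57BL/6 Rag1-/- control and at 236, 194 and 168 CPM in anti-CD40, and likewise high in the Rag2-/- controls and TRUC. CPM are counts per 1000000 reads of the tested genes after scaling by TMM, a normalization to the bulk of genes. H2-Ea-ps was at 0 in every TCT mouse and at most 0.104 CPM in any wild-type control, DSS, DNBS or IL-10 blockade mouse. This goes against the strain labels of the wild-type, DSS, DNBS, IL-10 blockade, Rag1-/- control and anti-CD40 groups. Rag2 transcripts were at 2.21, 1.30 and 1.13 CPM in the Rag2-/- controls and 6.93, 5.60, 5.22 and 5.13 CPM in TRUC, and a count per gene does not show whether an intact Rag2 is transcribed. Rag2 was also at 1.30, 0.442 and 1.72 CPM in the mice labelled Rag1-/- control and at 4.51, 8.49 and 3.44 CPM in anti-CD40, while TCT had 0 and every other mouse at most 0.0762 CPM. Rag1 was at 2.88, 2.31 and 1.85 CPM in TCT and at most 0.295 CPM in any other mouse. In Rag2, Rag1 and H2-Ea-ps the mice labelled Rag1-/- control and anti-CD40 thus went with the Rag2-/- controls and TRUC, and not with TCT, against their labels. Group names below are those of the labels. TCT and the mice labelled Rag1-/- control therefore differ in these markers, and genetic background and T-cell transfer cannot be told apart between them. The counts for TCT are thus given below against the wild-type controls as well, with the values of the genes that move most. By their labels the wild-type controls differ from TCT in strain and in Rag1. Strain, Rag1 genotype and T-cell transfer thus cannot be told apart in that comparison. The Rag2-/- and wild-type controls also differ in H2-Ea-ps, so genetic background and loss of Rag2 cannot be told apart between them either. Tbx21 transcripts were found in TRUC, at 2.43, 4.63, 3.21 and 2.12 CPM, above the Rag2-/- controls at 0.0885, 0.0765 and 0.529 CPM. A count per gene does not show which part of Tbx21 is transcribed. IL-10 blockade mice 3 and 4 had 92 and 3 counts of Hoxd13, a gene of the distal gut, where every other mouse had at least 1459. They were not alike in Hoxb13, another gene of the distal gut, with 4014 counts in mouse 3 and 2 in mouse 4, and at least 1090 in every mouse but mouse 4. DSS mouse 8 stood apart by its leukocyte genes and was also low for these distal genes. It had Hoxd13 at 117 CPM and Hoxb13 at 87.2 CPM, the lowest outside IL-10 blockade. The other DSS mice had 177 and 192 CPM of Hoxd13 and 195 and 245 CPM of Hoxb13. Total counts ran from 10725564 to 14977094 per mouse, and 3 counts, the most that a count of 0 allows, came to 0.179 to 0.314 CPM. That limit, like the counting intervals given below, covers counting error only.

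The promoters of C3, C1qb and C7 are shown since the first had the highest level per length outside the C1q chains, the second is a C1q chain, and the third held motif matches. They are 250 bases upstream of the RefSeq start in GRCm38.p6, on the minus strand, at chr17:57228137-57228386 for C3, chr4:136886201-136886450 for C1qb and chr15:5063774-5064023 for C7. Capitals mark matches to TTCNNNGAA (the GAS motif of STAT proteins) and to TATAAA, on either strand.
C3: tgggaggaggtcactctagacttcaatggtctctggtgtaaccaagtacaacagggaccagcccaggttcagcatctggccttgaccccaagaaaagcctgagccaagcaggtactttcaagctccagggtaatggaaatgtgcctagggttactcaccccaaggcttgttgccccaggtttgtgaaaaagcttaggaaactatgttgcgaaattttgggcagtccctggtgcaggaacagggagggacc
C1qb: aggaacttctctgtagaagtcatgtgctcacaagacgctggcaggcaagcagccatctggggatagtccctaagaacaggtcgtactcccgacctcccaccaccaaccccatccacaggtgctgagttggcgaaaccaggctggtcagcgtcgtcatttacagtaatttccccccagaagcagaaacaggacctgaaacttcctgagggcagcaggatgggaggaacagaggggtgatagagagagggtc
C7: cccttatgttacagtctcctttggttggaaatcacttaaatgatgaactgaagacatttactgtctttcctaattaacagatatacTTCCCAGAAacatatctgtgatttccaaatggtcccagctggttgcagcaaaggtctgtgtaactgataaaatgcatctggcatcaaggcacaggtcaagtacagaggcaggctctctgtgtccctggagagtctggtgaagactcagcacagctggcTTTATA
Windows were found for 22 of the 31 genes. TTCNNNGAA was in those of Masp2 and C7, and in 7.02% of all 32851 promoters. The ISRE motif was in that of Cd59a and in 2.977% of all, GAGGAAGT (PU.1) in that of C1qc and in 2.441%, the NF-kB consensus in that of C1qc and in 3.899%, and TATAAA in those of Hc, C7 and C3ar1 and in 12.368%. These are matches of letters within 250 bases and show neither binding nor its absence.

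Each model was compared with its control by edgeR's quasi-likelihood test in a fit of all 9 groups, with Benjamini-Hochberg adjustment over 18616 genes and a threshold of 0.05. In TRUC, 17 of the 29 complement genes rose, where 22.4% of all genes tested did, and 3 fell, where 23.4% did. DSS had 19 that rose against 17.7% of all genes, and 1 that fell against 16.3%. In IL-10 blockade 14 rose, with 27.2% of all genes rising, and 3 fell, with 26.1% falling. TCT showed 20 that rose and 2 that fell, beside 16.1% and 14% of all genes, and against the wild-type controls 16 rose and 1 fell, beside 16.9% and 13.8%. Anti-CD40 had 11 that rose and 0 that fell, beside 10.9% and 10.7% of all genes, and against the Rag2-/- controls 11 and 0, beside 12.4% and 11.8%. Without anti-CD40 mouse 7 the rises against the Rag1-/- controls numbered 6. In DNBS 2 rose and 0 fell in edgeR, beside 3.95% and 2.21%, so the share of complement genes was near that of all genes. That count was 0 without DNBS mouse 14, 1 without DNBS mouse 16 or any wild-type control, and 4 without DNBS mouse 11. DESeq2 on the DNBS and wild-type mice gave 8, and the share of all genes that it called was not worked out. The median log2 fold change of the 29 genes was 2.30 in TCT, 1.41 in TRUC, 1.41 in DSS, 0.56 in IL-10 blockade, 0.50 in anti-CD40 and 0.47 in DNBS, while the median of all genes tested lay between -0.03 and 0.024. Against the wild-type controls the median of the 29 in TCT was 1.12, below those of TRUC and DSS, and against the Rag2-/- controls that in anti-CD40 was 0.37. DSS, DNBS and IL-10 blockade share their control mice, as do TCT and anti-CD40, so these comparisons are not independent.

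**Figure D1:**
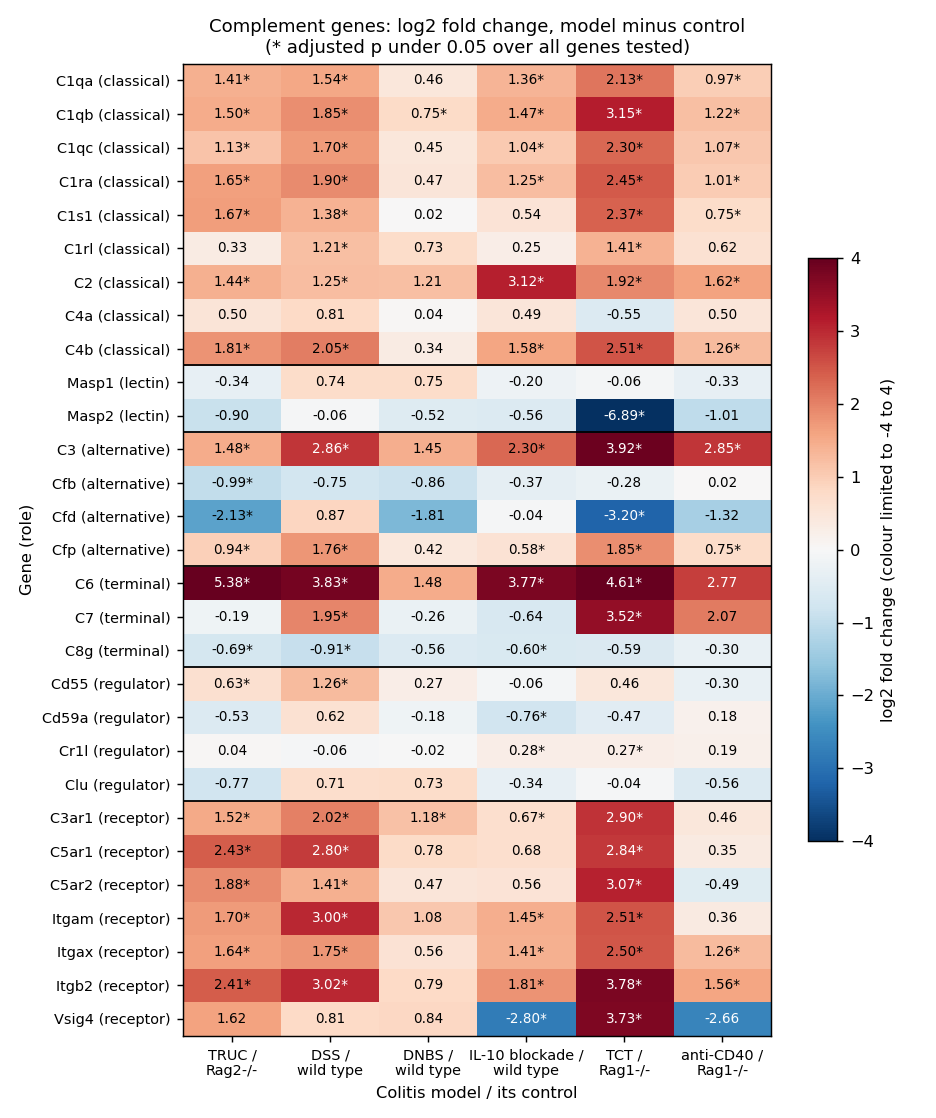
Log2 fold change (colour and number) of the 29 tested complement genes, in rows by role, in each colitis model against its control, in columns. Asterisks mark an edgeR adjusted p under 0.05, and the classical pathway and receptor rows hold most of the rises, with only C1qb and C3ar1 marked in DNBS.

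By role, 8 of the 9 classical genes rose in DSS, 8 in TCT, 7 in TRUC, 7 in anti-CD40, 6 in IL-10 blockade and 1 in DNBS. The share of all genes that rose was 17.7% in DSS, 16.1% in TCT, 22.4% in TRUC, 10.9% in anti-CD40, 27.2% in IL-10 blockade and 3.95% in DNBS. No classical gene fell past the threshold in edgeR in these comparisons. Of the 7 receptors, 7 rose in TCT, 6 in TRUC, 6 in DSS, 4 in IL-10 blockade, 2 in anti-CD40 and 1 in DNBS. At most 1 of the 4 tested regulators rose in any model, and the lectin proteases rose in none. Per kilobase of exon, the highest mean levels over the 9 groups were those of C1qa, C1qb, C1qc and C3. C1qa ran from 53.8 CPM per kilobase in the Rag1-/- controls to 246 in DSS, and C3 from 10.6 in the Rag1-/- controls to 161 in TCT. The lowest were Hc, the C5 gene, with group means of 0 to 0.0368 CPM per kilobase, and Cfi, the factor I protease that inactivates C3b and C4b, with 0.0141 to 0.126.

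The 3 C1q chains form the recognition subunit of the classical pathway and are made mainly by macrophages. All of them rose in TRUC, DSS, IL-10 blockade, TCT and anti-CD40, and C1qb alone passed the threshold in DNBS in edgeR. C1qa was at 80.1, 99.3 and 83.8 CPM in the wild-type controls, at 212, 213 and 342 CPM in DSS, at 134, 109.7 and 119 CPM in DNBS and at 200.2, 213, 278 and 212 CPM in IL-10 blockade. C1qa stood at 54.0, 60.1 and 79.8 CPM in the Rag2-/- controls and at 179, 181, 184 and 142 CPM in TRUC. C1qa measured 52.0, 62.9 and 52.9 CPM in the Rag1-/- controls, 291, 203 and 238 CPM in TCT and 99.6, 118 and 111 CPM in anti-CD40. Every DSS, DNBS, IL-10 blockade, TRUC, TCT and anti-CD40 mouse lay above all of its controls. C1qa rose, with a log2 fold change of 2.13 ± 0.19 (SE) in TCT, 1.41 ± 0.18 in TRUC, 0.97 ± 0.18 in anti-CD40, 1.54 ± 0.18 in DSS and 1.36 ± 0.17 in IL-10 blockade, and edgeR adjusted p from 8.57e-09 to 0.000763. C1qa did not pass the threshold in DNBS at 0.46 ± 0.18, with adjusted p of 0.119. C1qb was at 60.7, 72.7 and 56.4 CPM in the wild-type controls, at 182, 191 and 312 CPM in DSS, at 105, 99.9 and 114 CPM in DNBS and at 167, 163, 205 and 165 CPM in IL-10 blockade. C1qb stood at 23.7, 30.4 and 41.2 CPM in the Rag2-/- controls and at 93.5, 91.0, 103 and 71.9 CPM in TRUC. C1qb measured 22.2, 29.1 and 20.3 CPM in the Rag1-/- controls, 274, 165 and 199 CPM in TCT and 46.4, 63.4 and 57.0 CPM in anti-CD40. C1qb likewise showed no overlap with the controls in any model, and its controls were lower in the Rag1-/- and Rag2-/- groups than in the wild type. C1qb rose, with a log2 fold change of 3.15 ± 0.23 (SE) in TCT, 1.50 ± 0.21 in TRUC, 1.22 ± 0.22 in anti-CD40, 1.85 ± 0.22 in DSS, 1.47 ± 0.21 in IL-10 blockade and 0.75 ± 0.21 in DNBS, and edgeR adjusted p from 3.12e-10 to 0.0386. C1qc was at 78.0, 92.4 and 79.8 CPM in the wild-type controls, at 219, 224 and 369 CPM in DSS, at 126, 95.4 and 119 CPM in DNBS and at 168, 166, 217 and 134 CPM in IL-10 blockade. C1qc stood at 48.7, 54.5 and 67.1 CPM in the Rag2-/- controls and at 127, 139, 138 and 92.7 CPM in TRUC. C1qc measured 40.5, 46.6 and 35.0 CPM in the Rag1-/- controls, 239, 161 and 203 CPM in TCT and 70.9, 92.9 and 93.2 CPM in anti-CD40. C1qc mice of each model again lay above all of their controls. C1qc rose, with a log2 fold change of 2.30 ± 0.22 (SE) in TCT, 1.13 ± 0.20 in TRUC, 1.07 ± 0.21 in anti-CD40, 1.70 ± 0.21 in DSS and 1.04 ± 0.20 in IL-10 blockade, and edgeR adjusted p from 2.71e-08 to 0.00108. C1qc did not pass the threshold in DNBS at 0.45 ± 0.21, with adjusted p of 0.186. The call of C1qb in DNBS was lost without any wild-type control or without DNBS mouse 14 or 16, with an adjusted p of up to 0.133. Against the wild-type controls the log2 fold change in TCT was 1.48 ± 0.18 (SE) for C1qa, 1.75 ± 0.22 for C1qb and 1.27 ± 0.21 for C1qc, each past the threshold in edgeR with adjusted p from 5.89e-06 to 0.000125. In edgeR C1qb was lower in the Rag2-/- than in the wild-type controls, at -0.99 ± 0.22 with an adjusted p of 0.00365, as one of 6 of the 29 genes that were, with 4.86% of all genes lower. That count was 2 without wild-type control mouse 2 or without Rag2-/- control mouse 1 or 2. The Rag2-/- and wild-type controls differ in H2-Ea-ps as well.

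Macrophage markers rose beside C1q in part. The summed level of 6 of them (Adgre1, Cd68, Csf1r, Mertk, Cd14 and Lyz2) was 419 to 479.9 CPM in the wild-type controls, 971 to 2509 CPM in DSS, 627 to 641 CPM in DNBS and 899 to 1428 CPM in IL-10 blockade. It was 357 to 420.0 CPM in the Rag2-/- controls and 1108 to 1307 CPM in TRUC, and 388 to 409 CPM in the Rag1-/- controls, 1324 to 2251 CPM in TCT and 984 to 1195 CPM in anti-CD40. Of the 6 markers, 5 rose in TRUC, 5 in DSS, 2 in IL-10 blockade, 4 in TCT, 2 in anti-CD40 and 0 in DNBS by edgeR, and none was at 0 in a whole group. The 2 in IL-10 blockade and in anti-CD40 were Cd14 and Lyz2, while Adgre1, Cd68 and Csf1r did not pass the threshold there. Mertk, a receptor for apoptotic cells, was the marker that fell, in each model but anti-CD40. Their part in the C1q result was not tested, and in bulk tissue a change in the number of cells and a change in RNA per cell cannot be told apart.

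C1ra and C1s1 encode the C1r and C1s proteases that C1q activates. C1ra rose in each model but DNBS, and C1s1 in TRUC, DSS, TCT and anti-CD40. C1ra was at 32.2, 30.4 and 26.7 CPM in the wild-type controls, at 67.2, 59.7 and 206 CPM in DSS, at 38.9, 31.5 and 53.6 CPM in DNBS and at 72.7, 71.6, 80.6 and 58.1 CPM in IL-10 blockade. C1ra stood at 22.3, 19.2 and 26.2 CPM in the Rag2-/- controls and at 74.7, 71.2, 70.0 and 68.1 CPM in TRUC. C1ra measured 20.0, 25.8 and 24.0 CPM in the Rag1-/- controls, 126, 110.4 and 146 CPM in TCT and 45.7, 50.5 and 44.5 CPM in anti-CD40. C1ra was highest in DSS mouse 8 and in TCT, and overlapped its controls only in DNBS. C1ra rose, with a log2 fold change of 2.45 ± 0.30 (SE) in TCT, 1.65 ± 0.29 in TRUC, 1.01 ± 0.30 in anti-CD40, 1.90 ± 0.30 in DSS and 1.25 ± 0.28 in IL-10 blockade, and edgeR adjusted p from 1.4e-06 to 0.0171. C1ra did not pass the threshold in DNBS at 0.47 ± 0.29, with adjusted p of 0.325. C1s1 was at 88.9, 92.2 and 73.7 CPM in the wild-type controls, at 152, 148 and 365 CPM in DSS, at 99.4, 62.2 and 97.1 CPM in DNBS and at 126, 138, 120.0 and 111 CPM in IL-10 blockade. C1s1 stood at 39.8, 43.7 and 52.7 CPM in the Rag2-/- controls and at 144, 163, 148 and 124 CPM in TRUC. C1s1 measured 30.5, 45.7 and 45.4 CPM in the Rag1-/- controls, 219, 175 and 235 CPM in TCT and 65.9, 72.3 and 66.1 CPM in anti-CD40. C1s1 overlapped its controls only in DNBS as well, and its lowest control levels were those of the Rag1-/- mice. C1s1 rose, with a log2 fold change of 2.37 ± 0.26 (SE) in TCT, 1.67 ± 0.24 in TRUC, 0.75 ± 0.25 in anti-CD40 and 1.38 ± 0.25 in DSS, and edgeR adjusted p from 2.26e-07 to 0.0341. C1s1 did not pass the threshold in IL-10 blockade at 0.54 ± 0.23 and DNBS at 0.021 ± 0.25, with adjusted p from 0.0522 to 0.972. Without DSS mouse 8 the log2 fold change of C1ra in DSS was 1.09. In anti-CD40 the call of C1ra was lost without Rag1-/- control mouse 2 or anti-CD40 mouse 7 (adjusted p up to 0.0686), and that of C1s1 without any Rag1-/- control or without anti-CD40 mouse 6 or 7 (up to 0.144). C1s1 in TCT was at 1.30 ± 0.25 against the wild-type controls (edgeR adjusted p = 0.000482). Against the Rag2-/- controls C1s1 in anti-CD40 had an edgeR adjusted p of 0.0877. C1ra shares 50.8% of its 50-base exon windows with C1rb and Gm18840, and C1s1 35.1% with C1s2 and with Gm16567, which overlaps it on the opposite strand, so the counts of these genes are uncertain. C1rl, a C1r-like protease, rose in edgeR in DSS at 1.21 ± 0.30 (SE) and in TCT at 1.41 ± 0.31, with group means over the 9 groups of 3.79 to 10.8 CPM. Its call in DSS was lost without DSS mouse 8 (adjusted p = 0.0636).

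C4 and C2 are the substrates of C1s, and mice carry the paired genes C4b and C4a. C4b rose in each model but DNBS, while C4a passed the threshold in none of the models. C4b was at 50.1, 54.8 and 55.8 CPM in the wild-type controls, at 173, 181 and 313 CPM in DSS, at 64.3, 53.4 and 85.1 CPM in DNBS and at 146, 200.0, 171 and 124 CPM in IL-10 blockade. C4b stood at 37.5, 32.8 and 62.9 CPM in the Rag2-/- controls and at 178, 156, 135 and 152 CPM in TRUC. C4b measured 28.9, 50.5 and 56.9 CPM in the Rag1-/- controls, 233, 249 and 297 CPM in TCT and 93.4, 105 and 127 CPM in anti-CD40. C4b in every DSS, IL-10 blockade, TRUC, TCT and anti-CD40 mouse exceeded all of its controls, while DNBS overlapped the wild type. C4b rose, with a log2 fold change of 2.51 ± 0.27 (SE) in TCT, 1.81 ± 0.25 in TRUC, 1.26 ± 0.26 in anti-CD40, 2.05 ± 0.26 in DSS and 1.58 ± 0.25 in IL-10 blockade, and edgeR adjusted p from 1.76e-07 to 0.00165. C4b did not pass the threshold in DNBS at 0.34 ± 0.26, with adjusted p of 0.434. C4a, whose product is the sex-limited protein Slp, was at 0.342 to 2.21 CPM over all 29 mice and overlapped its controls in each model. C4a passed the threshold in none of the 6 comparisons, with log2 fold changes of -0.55 ± 0.45 (SE) in TCT, 0.50 ± 0.39 in TRUC, 0.50 ± 0.42 in anti-CD40, 0.81 ± 0.44 in DSS, 0.49 ± 0.44 in IL-10 blockade and 0.04 ± 0.47 in DNBS and edgeR adjusted p from 0.162 to 0.972.

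The C4b coding sequence and the C4a transcript, for which no coding sequence is annotated, were 96.1% identical over 5204 aligned bases. Of the 50-base windows of C4b, 34.6% occur in C4a, so some reads fit both. Of the places where reads can tell them apart, the stretch of 60 bases with the most differences is shown. It lies at chr17:34735430-34735489 for C4b and chr17:34816086-34816145 for C4a in GRCm38, minus strand, from GENCODE M21 transcripts. Capitals mark the 13 bases that differ.
C4b: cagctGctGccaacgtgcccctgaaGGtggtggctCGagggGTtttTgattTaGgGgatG
C4a: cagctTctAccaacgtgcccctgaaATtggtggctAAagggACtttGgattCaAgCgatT

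C2 supplies the protease of the classical C3 convertase. It rose in each model but DNBS, most in IL-10 blockade, while Cfb, its alternative-pathway counterpart, rose in none of the models. C2 was at 0.914, 1.13 and 0.984 CPM in the wild-type controls, at 1.89, 1.37 and 4.08 CPM in DSS, at 1.13, 1.40 and 4.69 CPM in DNBS and at 9.19, 9.87, 6.69 and 9.93 CPM in IL-10 blockade. C2 stood at 1.24, 1.22 and 1.28 CPM in the Rag2-/- controls and at 3.10, 4.36, 3.48 and 2.69 CPM in TRUC. C2 measured 1.22, 1.77 and 1.20 CPM in the Rag1-/- controls, 8.03, 3.50 and 4.45 CPM in TCT and 5.54, 3.34 and 4.16 CPM in anti-CD40. IL-10 blockade had the highest C2 levels, and no model overlapped its controls, although DNBS mouse 11 was only just above them. C2 rose, with a log2 fold change of 1.92 ± 0.44 (SE) in TCT, 1.44 ± 0.42 in TRUC, 1.62 ± 0.44 in anti-CD40, 1.25 ± 0.46 in DSS and 3.12 ± 0.43 in IL-10 blockade, and edgeR adjusted p from 5.42e-06 to 0.0372. C2 did not pass the threshold in DNBS at 1.21 ± 0.46, with adjusted p of 0.107. In DSS the call of C2 was lost without DSS mouse 8 or any wild-type control (adjusted p up to 0.319) and in DESeq2 (adjusted p = 0.0707). Cfb was at 2.13, 1.53 and 2.38 CPM in the wild-type controls, at 1.13, 1.09 and 1.36 CPM in DSS, at 1.19, 1.16 and 0.938 CPM in DNBS and at 1.43, 2.49, 1.63 and 0.627 CPM in IL-10 blockade. Cfb stood at 2.57, 2.07 and 1.66 CPM in the Rag2-/- controls and at 1.40, 0.445, 1.10 and 1.22 CPM in TRUC. Cfb measured 2.11, 0.884 and 1.98 CPM in the Rag1-/- controls, 1.57, 1.20 and 1.30 CPM in TCT and 1.69, 1.37 and 1.94 CPM in anti-CD40. Cfb stayed within 0.445 to 2.57 CPM in all mice, and TRUC, DSS and DNBS mice lay below all of their controls. Cfb fell, with a log2 fold change of -0.99 ± 0.35 (SE) in TRUC, and an edgeR adjusted p of 0.0259. Cfb did not pass the threshold in TCT at -0.28 ± 0.38, anti-CD40 at 0.021 ± 0.37, DSS at -0.75 ± 0.37, IL-10 blockade at -0.37 ± 0.35 and DNBS at -0.86 ± 0.38, with adjusted p from 0.124 to 0.987. Its call in TRUC was lost without Rag2-/- control mouse 1 or 2 or TRUC mouse 3 (adjusted p up to 0.110). Both genes lie side by side on chromosome 17, where the annotated readthrough gene Gm20547 covers 79.5% of the exon bases of Cfb and, with Zbtb12, 46.9% of those of C2. Gm20547 had 0 counts in every mouse. How reads in exons shared by annotated genes were counted is not given in the sources used here, so the levels of C2 and Cfb are uncertain.

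C3 is the centre of all 3 pathways. It rose in each model but DNBS, most in TCT. C3 was at 69.0, 88.2 and 107 CPM in the wild-type controls, at 464, 337 and 1120.4 CPM in DSS, at 100.3, 506 and 117 CPM in DNBS and at 368, 439.8, 538 and 385 CPM in IL-10 blockade. C3 stood at 44.1, 124 and 113 CPM in the Rag2-/- controls and at 292, 287, 216 and 248 CPM in TRUC. C3 measured 29.1, 71.6 and 63.4 CPM in the Rag1-/- controls, 982, 653 and 847 CPM in TCT and 351, 395 and 435 CPM in anti-CD40. The TRUC, DSS, IL-10 blockade, TCT and anti-CD40 mice lay above all of their controls, and in DNBS mouse 14 was at 506 CPM while the other DNBS mice were at 100.3 and 117 CPM. C3 rose, with a log2 fold change of 3.92 ± 0.54 (SE) in TCT, 1.48 ± 0.47 in TRUC, 2.85 ± 0.51 in anti-CD40, 2.86 ± 0.51 in DSS and 2.30 ± 0.48 in IL-10 blockade, and edgeR adjusted p from 5.53e-06 to 0.0122. C3 did not pass the threshold in DNBS at 1.45 ± 0.49, with adjusted p of 0.0726. The call in TRUC was lost without Rag2-/- control mouse 1 (adjusted p = 0.0788), and without DSS mouse 8 the log2 fold change in DSS was 2.19. Against the wild-type controls C3 in TCT had a log2 fold change of 3.23 ± 0.52 (SE) with an edgeR adjusted p of 9.48e-05, and against the Rag2-/- controls C3 in anti-CD40 had 2.07 ± 0.50 with 0.00449. C3 shares no exon window with another gene. Fibroblasts and macrophages can both express C3, and the summed level of 6 fibroblast markers (Col1a1, Col1a2, Col3a1, Pdgfra, Dcn and Lum) was 1599 to 1837 CPM in the wild-type controls, 2117 to 3134 CPM in DSS, 1771 to 4695 CPM in DNBS and 1009 to 1528 CPM in IL-10 blockade. It was 1197 to 1456 CPM in the Rag2-/- controls, 1363 to 1815 CPM in TRUC, 1168 to 1627 CPM in the Rag1-/- controls, 1547 to 1949 CPM in TCT and 847 to 1476 CPM in anti-CD40. By edgeR 3 of the 6 rose in DNBS, 2 in DSS and 1 in TCT, while 3 fell in IL-10 blockade, 2 in anti-CD40 and 1 in TRUC. Their part in the C3 result was not tested.

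**Figure D2:**
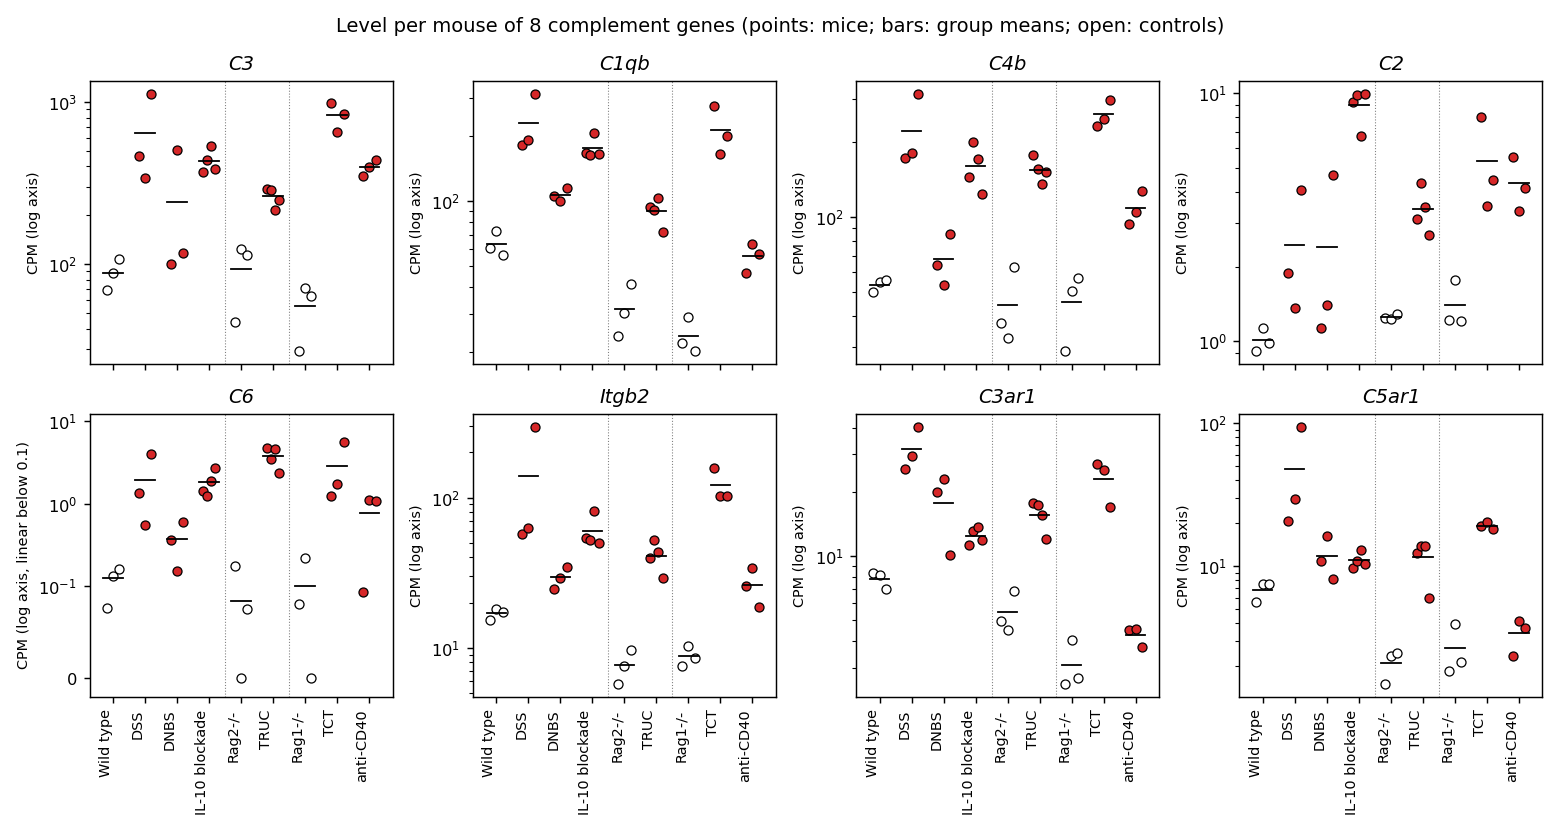
CPM on a log axis (for C6 linear below 0.1) of 8 complement genes in every mouse, by group, with open points for controls, red points for models and bars for group means. C3 and C4b exceed their controls in every group but DNBS, and C2 is highest in IL-10 blockade, between 6.69 and 9.93 CPM.

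Cfd encodes factor D, also called adipsin for its expression in fat, which cleaves factor B. It fell in TRUC and TCT. Cfd was at 32.4, 8.26 and 18.2 CPM in the wild-type controls, at 44.5, 39.2 and 23.6 CPM in DSS, at 8.36, 1.09 and 7.16 CPM in DNBS and at 21.9, 15.8, 2.15 and 36.4 CPM in IL-10 blockade. Cfd stood at 16.6, 64.8 and 73.9 CPM in the Rag2-/- controls and at 6.56, 6.32, 11.6 and 23.0 CPM in TRUC. Cfd measured 57.0, 99.5 and 54.9 CPM in the Rag1-/- controls, 0, 6.84 and 16.3 CPM in TCT and 7.89, 28.3 and 48.0 CPM in anti-CD40. Cfd varied widely among the mice of a group, as with 0 CPM in TCT mouse 1, 6.84 in mouse 3 and 16.3 in mouse 5, and the Rag1-/- controls were above all TCT and anti-CD40 mice. Cfd fell, with a log2 fold change of -3.20 ± 0.94 (SE) in TCT and -2.13 ± 0.81 in TRUC, and edgeR adjusted p from 0.0120 to 0.0355. Cfd did not pass the threshold in anti-CD40 at -1.32 ± 0.86, DSS at 0.87 ± 0.86, IL-10 blockade at -0.045 ± 0.81 and DNBS at -1.81 ± 0.92, with adjusted p from 0.230 to 0.968. The call in TRUC was lost without Rag2-/- control mouse 2 or 4 or TRUC mouse 2, 3 or 4 (adjusted p up to 0.120). In TCT the log2 fold change was -2.61 without TCT mouse 1 and -4.35 without TCT mouse 5, and against the wild-type controls it was -1.35 ± 0.91 with an edgeR adjusted p of 0.269. DESeq2 gave Cfd in TCT an adjusted p of 0.173.

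The adipocyte markers Adipoq, Plin1, Cidec and Lep were measured in the same libraries. Adipoq, the adiponectin gene, was at 3.01, 14.9 and 25.5 CPM in the Rag2-/- controls and 0.516, 1.69, 1.83 and 2.12 CPM in TRUC. Adipoq was at 16.8, 26.3 and 17.6 CPM in the Rag1-/- controls, 0, 1.45 and 3.61 CPM in TCT and 1.78, 4.89 and 6.82 CPM in anti-CD40. All 4 markers fell in TRUC by edgeR, 3 in TCT and 2 in anti-CD40, where Cfd did not pass the threshold. Cidec, a lipid droplet gene, rose in DSS and in IL-10 blockade, where Cfd did not pass it either, and no adipocyte marker passed it in DNBS. Their summed level was 9.30 to 63.2 CPM in the Rag2-/- controls and 4.57 to 10.2 CPM in TRUC, and 29.2 to 53.5 CPM in the Rag1-/- controls, 3.76 to 10.8 CPM in TCT and 5.64 to 21.0 CPM in anti-CD40, with Lep at 0 in all anti-CD40 mice. It was 3.33 to 9.14 CPM in the wild-type controls, 8.64 to 16.6 CPM in DSS, 3.28 to 5.63 CPM in DNBS and 11.8 to 32.6 CPM in IL-10 blockade. The mouse with the lowest Cfd of its group also had the lowest Adipoq in every group but TRUC and the Rag1-/- controls. In TRUC mouse 3 was lowest for Cfd and mouse 2 for Adipoq, and in the Rag1-/- controls mouse 4 and mouse 2. The part of fat in the Cfd result was not tested.

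**Figure D3:**
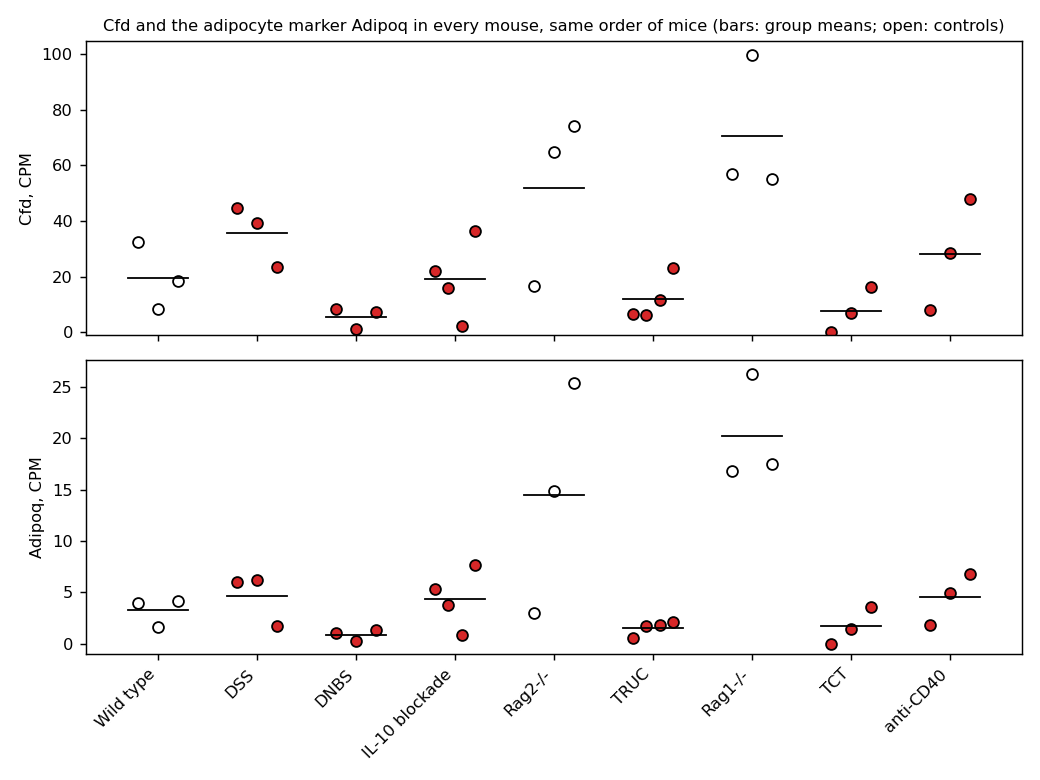
CPM of Cfd (top) and of the adipocyte marker Adipoq (bottom) in every mouse, by group and in the same order of mice, with open points for controls, red points for models and bars for group means. In the Rag2-/- controls the mouse at 16.6 CPM of Cfd had 3.01 CPM of Adipoq, and the mouse at 73.9 CPM had 25.5, while in TRUC the lowest Cfd and the lowest Adipoq were in different mice.

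Cfp encodes properdin, which stabilizes the alternative C3 convertase and is made by myeloid cells. Cfp rose, with a log2 fold change of 1.85 ± 0.23 (SE) in TCT, 0.94 ± 0.22 in TRUC, 0.75 ± 0.23 in anti-CD40, 1.76 ± 0.23 in DSS and 0.58 ± 0.21 in IL-10 blockade, and edgeR adjusted p from 1.83e-06 to 0.0244. Cfp did not pass the threshold in DNBS at 0.42 ± 0.23, with adjusted p of 0.258. Its group means ran from 12.9 CPM in the Rag2-/- controls to 76.8 CPM in DSS, and no model overlapped its controls. The call in IL-10 blockade was lost without any wild-type control or IL-10 blockade mouse 3 (adjusted p up to 0.112) and without both IL-10 blockade mice 3 and 4 (0.271), and that in anti-CD40 without Rag1-/- control mouse 2 or 4 or anti-CD40 mouse 7 (up to 0.128). Cfp in TCT was at 1.09 ± 0.23 against the wild-type controls (edgeR adjusted p = 0.00103). In edgeR Cfp was lower in the Rag2-/- than in the wild-type controls, at -0.81 ± 0.23 with an adjusted p of 0.0273.

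The lectin pathway was represented by its 2 proteases. Masp1, which also acts in the alternative pathway, passed the threshold in none of the comparisons in edgeR, with group means of 1.58 to 3.42 CPM. Masp2 was at 0, 0.200 and 0 CPM in the wild-type controls, at 0, 0.137 and 0.0800 CPM in DSS, at 0.0597, 0.0775 and 0 CPM in DNBS and at 0, 0, 0.172 and 0 CPM in IL-10 blockade. Masp2 stood at 1.33, 0.612 and 1.13 CPM in the Rag2-/- controls and at 0.590, 0.356, 0.641 and 0.570 CPM in TRUC. Masp2 measured 1.30, 0.958 and 1.29 CPM in the Rag1-/- controls, 0, 0 and 0 CPM in TCT and 0.564, 0.686 and 0.502 CPM in anti-CD40. Masp2 was near 0 in every mouse with low H2-Ea-ps, TCT and the wild-type controls included, and present in every mouse with high H2-Ea-ps. In TCT Masp2 fell (edgeR adjusted p = 4.13e-05), in TRUC it lay at -0.90 ± 0.49 (SE) with an adjusted p of 0.141, and in anti-CD40 at -1.01 ± 0.52 with 0.173. DSS, DNBS, IL-10 blockade and the wild-type controls had at most 3 counts in any mouse, so no fold is given. No read was counted in TCT, so that Masp2 was at least 4.45-fold lower than in the Rag1-/- controls, with the floor taken as 3 counts per mouse, and no difference from the wild-type controls was detectable at this depth. Masp2 was 13.6-fold (95% exact counting interval 4.31 to 68.8) higher in the Rag2-/- than in the wild-type controls (edgeR adjusted p = 0.00152), as the only complement gene of the 29 that was higher there, with 3.25% of all genes. Of its exon bases 54.9% overlap Tardbp on the opposite strand, and the strand setting of the counting is not given in the sources used here.

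Among the terminal components, C6, which joins C5b to begin the membrane attack complex, came from near 0 counts. C6 was at 0.0762, 0.133 and 0.164 CPM in the wild-type controls, at 1.32, 0.547 and 3.92 CPM in DSS, at 0.358, 0.155 and 0.597 CPM in DNBS and at 1.43, 1.25, 1.89 and 2.72 CPM in IL-10 blockade. C6 stood at 0.177, 0 and 0.0755 CPM in the Rag2-/- controls and at 4.72, 3.47, 4.49 and 2.36 CPM in TRUC. C6 measured 0.0811, 0.221 and 0 CPM in the Rag1-/- controls, 1.22, 1.71 and 5.56 CPM in TCT and 0.0939, 1.11 and 1.08 CPM in anti-CD40. All TRUC, DSS, IL-10 blockade and TCT mice lay above their controls, while in anti-CD40 mouse 6 was at 0.0939 CPM, among its controls. Since no control had more than 3 counts, ratios of summed counts are given with their exact counting intervals, and they came to 47.3-fold (95% exact counting interval 15.9 to 231) in TRUC, 14.6-fold (95% exact counting interval 6.01 to 46.3) in DSS, 14.5-fold (95% exact counting interval 5.97 to 46.1) in IL-10 blockade and 26.0-fold (95% exact counting interval 9.82 to 97.3) in TCT. C6 rose, with a log2 fold change of 4.61 ± 0.90 (SE) in TCT, 5.38 ± 0.90 in TRUC, 3.83 ± 0.88 in DSS and 3.77 ± 0.86 in IL-10 blockade, and edgeR adjusted p from 5.92e-05 to 0.00178. C6 did not pass the threshold in anti-CD40 at 2.77 ± 1.01 and DNBS at 1.48 ± 1.06, with adjusted p from 0.0511 to 0.399. These fitted values depend on the prior count, and the value in TCT was 5.78 without Rag1-/- control mouse 3 and 3.68 without TCT mouse 5, that in TRUC 6.29 without Rag2-/- control mouse 1 and that in DSS 2.83 without DSS mouse 8. Against the Rag2-/- controls C6 in anti-CD40 passed the threshold in edgeR (adjusted p = 0.0336), with a count ratio of 10.0-fold (95% exact counting interval 3.11 to 51.5) and groups that overlapped.

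C7, the next component to join, was at 0.686, 0.799 and 0.492 CPM in the wild-type controls and 1.89, 2.32 and 3.60 CPM in DSS, and rose there at 1.95 ± 0.51 (SE) with an edgeR adjusted p of 0.00489. The Rag1-/- controls had 0, 0.221 and 0 CPM of C7 and TCT 0.524, 0.769 and 1.76 CPM, a count ratio of 12.5-fold (95% exact counting interval 3.94 to 63.8) and an edgeR adjusted p of 0.00125. The fitted log2 value was 3.52 ± 0.77, 6.67 without Rag1-/- control mouse 3 and 2.88 without TCT mouse 5, and against the wild-type controls it was 0.60 ± 0.55 with an adjusted p of 0.427. C7 passed the threshold in no other model in edgeR. C8g was at 2.90, 2.93 and 2.87 CPM in the wild-type controls, at 1.70, 1.78 and 1.12 CPM in DSS, at 2.69, 1.71 and 1.45 CPM in DNBS and at 2.36, 2.08, 1.63 and 1.57 CPM in IL-10 blockade. C8g stood at 2.04, 3.67 and 3.40 CPM in the Rag2-/- controls and at 2.21, 1.60, 1.65 and 2.04 CPM in TRUC. C8g measured 3.00, 3.02 and 2.32 CPM in the Rag1-/- controls, 1.83, 2.14 and 1.58 CPM in TCT and 2.82, 1.89 and 2.08 CPM in anti-CD40. C8g, the lipocalin-like gamma chain of C8, was lower than all controls in DSS, IL-10 blockade, DNBS and TCT and overlapped them in TRUC and anti-CD40. C8g fell, with a log2 fold change of -0.69 ± 0.25 (SE) in TRUC, -0.91 ± 0.27 in DSS and -0.60 ± 0.25 in IL-10 blockade, and edgeR adjusted p from 0.0106 to 0.0454. C8g did not pass the threshold in TCT at -0.59 ± 0.27, anti-CD40 at -0.30 ± 0.26 and DNBS at -0.56 ± 0.26, with adjusted p from 0.102 to 0.436. Its call in TRUC was lost without Rag2-/- control mouse 2 or 4 or TRUC mouse 3 or 4 (adjusted p up to 0.128), that in DSS without DSS mouse 8 (0.0732) and that in IL-10 blockade without any wild-type control or IL-10 blockade mouse 2, 3 or 4 (up to 0.105).

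Hc was under the count minimum, at 0 to 0.358 CPM, and its highest count in any mouse was 6. Cfi was at 0.152, 0 and 0 CPM in the wild-type controls, at 0.0629, 0.137 and 0.640 CPM in DSS, at 0.239, 0.465 and 0 CPM in DNBS and at 0.169, 0, 0.172 and 0 CPM in IL-10 blockade. Cfi stood at 0.0885, 0.0765 and 0.151 CPM in the Rag2-/- controls and at 0.0737, 0.0890, 0.183 and 0.651 CPM in TRUC. Cfi measured 0.243, 0.0737 and 0.172 CPM in the Rag1-/- controls, 0, 0.256 and 0 CPM in TCT and 0.0939, 0 and 0 CPM in anti-CD40. Cfi had at most 8 counts in any mouse and no test was made. Cd55 encodes decay accelerating factor, which takes apart C3 convertases on cell surfaces. Cd55 was at 76.4, 79.2 and 75.1 CPM in the wild-type controls, at 122, 198 and 231 CPM in DSS, at 106, 88.7 and 83.6 CPM in DNBS and at 68.0, 95.3, 42.3 and 89.2 CPM in IL-10 blockade. Cd55 stood at 62.2, 67.3 and 75.1 CPM in the Rag2-/- controls and at 125, 110.0, 103 and 84.5 CPM in TRUC. Cd55 measured 46.5, 57.6 and 76.0 CPM in the Rag1-/- controls, 107, 71.1 and 70.1 CPM in TCT and 44.2, 56.2 and 45.6 CPM in anti-CD40. Cd55 lay above all controls in DSS, DNBS and TRUC and overlapped them in IL-10 blockade, TCT and anti-CD40. Cd55 rose, with a log2 fold change of 0.63 ± 0.23 (SE) in TRUC and 1.26 ± 0.25 in DSS, and edgeR adjusted p from 0.000475 to 0.0298. Cd55 did not pass the threshold in TCT at 0.46 ± 0.25, anti-CD40 at -0.30 ± 0.25, IL-10 blockade at -0.063 ± 0.23 and DNBS at 0.27 ± 0.24, with adjusted p from 0.165 to 0.834. Its call in TRUC was lost without Rag2-/- control mouse 1 or 2 or TRUC mouse 2 or 3 (adjusted p up to 0.103). Cd59a blocks the last step of the membrane attack complex. Cd59a was at 27.7, 25.3 and 22.0 CPM in the wild-type controls, at 30.9, 42.3 and 41.7 CPM in DSS, at 28.0, 20.4 and 17.6 CPM in DNBS and at 8.94, 20.1, 8.67 and 21.6 CPM in IL-10 blockade. Cd59a stood at 5.93, 6.20 and 6.42 CPM in the Rag2-/- controls and at 4.28, 5.25, 4.40 and 3.18 CPM in TRUC. Cd59a measured 3.08, 5.16 and 3.96 CPM in the Rag1-/- controls, 3.32, 2.91 and 2.59 CPM in TCT and 3.76, 3.26 and 6.75 CPM in anti-CD40. Cd59a was several times higher in every wild-type control than in any Rag1-/- or Rag2-/- control. Cd59a fell, with a log2 fold change of -0.76 ± 0.27 (SE) in IL-10 blockade, and an edgeR adjusted p of 0.0231. Cd59a did not pass the threshold in TCT at -0.47 ± 0.34, TRUC at -0.53 ± 0.30, anti-CD40 at 0.18 ± 0.33, DSS at 0.62 ± 0.29 and DNBS at -0.18 ± 0.29, with adjusted p from 0.104 to 0.740. The call in IL-10 blockade was lost without wild-type control mouse 1 or 2 or IL-10 blockade mouse 1 or 3 (adjusted p up to 0.0842). Against the wild-type controls Cd59a was lower in TCT at -3.08 ± 0.33 (edgeR adjusted p = 1.33e-06) and in the Rag2-/- controls at -2.01 ± 0.31 (6.95e-05).

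Clu encodes clusterin, a chaperone that also inhibits the terminal complex. Clu was at 122, 147 and 174 CPM in the wild-type controls, at 213, 173 and 341 CPM in DSS, at 288, 341 and 105 CPM in DNBS and at 103, 103, 213 and 48.8 CPM in IL-10 blockade. Clu stood at 68.6, 78.5 and 127 CPM in the Rag2-/- controls and at 70.6, 45.8, 51.2 and 46.9 CPM in TRUC. Clu measured 95.9, 106 and 94.4 CPM in the Rag1-/- controls, 147, 54.3 and 87.7 CPM in TCT and 87.3, 68.8 and 44.9 CPM in anti-CD40. Clu overlapped its controls in each model but anti-CD40 and spread widely within IL-10 blockade, where mouse 4 was lowest and mouse 3 highest. Clu passed the threshold in none of the 6 comparisons, with log2 fold changes of -0.036 ± 0.43 (SE) in TCT, -0.77 ± 0.40 in TRUC, -0.56 ± 0.43 in anti-CD40, 0.71 ± 0.43 in DSS, -0.34 ± 0.40 in IL-10 blockade and 0.73 ± 0.43 in DNBS and edgeR adjusted p from 0.119 to 0.970. Cr1l, known as Crry, is the main C3b regulator of mouse cells, and its 29 values stayed within 77.9 to 141 CPM. Cr1l rose, with a log2 fold change of 0.27 ± 0.10 (SE) in TCT and 0.28 ± 0.095 in IL-10 blockade, and edgeR adjusted p from 0.0166 to 0.0476. Cr1l did not pass the threshold in TRUC at 0.038 ± 0.094, anti-CD40 at 0.19 ± 0.10, DSS at -0.055 ± 0.10 and DNBS at -0.016 ± 0.10, with adjusted p from 0.180 to 0.943. The call in IL-10 blockade was lost without wild-type control mouse 2 or IL-10 blockade mouse 2 (adjusted p up to 0.0538) and under upper quartile scaling (0.309), and that in TCT without Rag1-/- control mouse 3 or 4 or TCT mouse 1 or 5 (up to 0.257) and against the wild-type controls (0.656).

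The anaphylatoxin receptors C3ar1 and C5ar1 bind C3a and C5a on myeloid cells. C3ar1 was at 8.31, 8.13 and 6.97 CPM in the wild-type controls, at 25.6, 29.4 and 40.3 CPM in DSS, at 19.9, 23.0 and 10.1 CPM in DNBS and at 11.2, 13.1, 13.6 and 11.9 CPM in IL-10 blockade. C3ar1 stood at 4.96, 4.52 and 6.87 CPM in the Rag2-/- controls and at 17.7, 17.3, 15.6 and 12.1 CPM in TRUC. C3ar1 measured 2.51, 4.05 and 2.67 CPM in the Rag1-/- controls, 27.0, 25.2 and 17.0 CPM in TCT and 4.51, 4.54 and 3.73 CPM in anti-CD40. C3ar1 exceeded all controls in DSS, DNBS, IL-10 blockade, TRUC and TCT, and only anti-CD40 overlapped. C3ar1 rose, with a log2 fold change of 2.90 ± 0.27 (SE) in TCT, 1.52 ± 0.25 in TRUC, 2.02 ± 0.25 in DSS, 0.67 ± 0.24 in IL-10 blockade and 1.18 ± 0.25 in DNBS, and edgeR adjusted p from 2.8e-08 to 0.0207. C3ar1 did not pass the threshold in anti-CD40 at 0.46 ± 0.28, with adjusted p of 0.251. C5ar1 was at 5.64, 7.46 and 7.46 CPM in the wild-type controls, at 20.8, 29.4 and 93.9 CPM in DSS, at 10.9, 16.2 and 8.10 CPM in DNBS and at 9.78, 10.8, 13.0 and 10.4 CPM in IL-10 blockade. C5ar1 stood at 1.51, 2.37 and 2.49 CPM in the Rag2-/- controls and at 12.4, 13.9, 13.8 and 6.03 CPM in TRUC. C5ar1 measured 1.86, 3.98 and 2.15 CPM in the Rag1-/- controls, 19.1, 20.4 and 18.2 CPM in TCT and 2.35, 4.12 and 3.73 CPM in anti-CD40. C5ar1 exceeded all controls in the same models, with DSS mouse 8 far above the other DSS mice. C5ar1 rose, with a log2 fold change of 2.84 ± 0.44 (SE) in TCT, 2.43 ± 0.44 in TRUC and 2.80 ± 0.42 in DSS, and edgeR adjusted p from 3.06e-05 to 0.000127. C5ar1 did not pass the threshold in anti-CD40 at 0.35 ± 0.46, IL-10 blockade at 0.68 ± 0.39 and DNBS at 0.78 ± 0.41, with adjusted p from 0.142 to 0.633. C5ar2 was at 0.762, 0.999 and 0.820 CPM in the wild-type controls, at 2.08, 1.78 and 3.12 CPM in DSS, at 1.19, 1.55 and 0.853 CPM in DNBS and at 1.43, 1.35, 1.54 and 0.732 CPM in IL-10 blockade. C5ar2 stood at 0.177, 0.230 and 0.302 CPM in the Rag2-/- controls and at 1.25, 0.712, 0.825 and 0.814 CPM in TRUC. C5ar2 measured 0.324, 0.0737 and 0.0861 CPM in the Rag1-/- controls, 0.961, 1.45 and 1.85 CPM in TCT and 0.0939, 0.257 and 0 CPM in anti-CD40. C5ar2, the other C5a receptor, which does not couple to G proteins, was lower in the Rag1-/- and Rag2-/- controls than in the wild type, with at most 4 counts in each. C5ar2 rose, with a log2 fold change of 3.07 ± 0.53 (SE) in TCT, 1.88 ± 0.49 in TRUC and 1.41 ± 0.39 in DSS, and edgeR adjusted p from 9.04e-05 to 0.00726. C5ar2 did not pass the threshold in anti-CD40 at -0.49 ± 0.76, IL-10 blockade at 0.56 ± 0.39 and DNBS at 0.47 ± 0.41, with adjusted p from 0.234 to 0.720. The call of C3ar1 in DNBS was lost without DNBS mouse 14 (adjusted p = 0.0622), that in IL-10 blockade without wild-type control mouse 4 (0.0764) or without mice 3 and 4 of the model (0.0767), and that of C5ar2 in DSS without DSS mouse 8 (0.0508). The log2 fold change of C5ar1 in DSS was 1.87 without DSS mouse 8, and that of C5ar2 in TCT 4.01 without Rag1-/- control mouse 2.

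Against the wild-type controls, C3ar1 in TCT had a log2 fold change of 1.56 ± 0.25 (SE), C5ar1 1.49 ± 0.41 and C5ar2 0.71 ± 0.41, of which the last did not pass the threshold (edgeR adjusted p = 0.190). The Rag2-/- controls were below the wild-type controls for C5ar1 at -1.68 ± 0.45 and for C5ar2 at -1.81 ± 0.51, with edgeR adjusted p of 0.0198 and 0.0251. Background and loss of Rag2 cannot be told apart there. The neutrophil markers S100a8, S100a9, Csf3r, Cxcr2, Ly6g, Mmp8, Retnlg and Camp were measured in the same mice. Camp passed the threshold in IL-10 blockade only. Of the 8 markers, 7 rose in TRUC, 7 in DSS, 7 in IL-10 blockade, 6 in DNBS, 6 in TCT and 5 in anti-CD40 by edgeR. Their summed level was 131 to 146 CPM in the wild-type controls, 508 to 2551 CPM in DSS, 174 to 297 CPM in DNBS and 246 to 928 CPM in IL-10 blockade. It was 211 to 339 CPM in the Rag2-/- controls, 1537 to 2101 CPM in TRUC, 152 to 293 CPM in the Rag1-/- controls, 334 to 589.7 CPM in TCT and 557 to 887 CPM in anti-CD40. Cxcr2 was at 0 in all 3 control groups. Anti-CD40 was thus above its controls for these markers, 5 of 8 past the threshold in edgeR, while C3ar1, C5ar1 and C5ar2 did not pass it there. In IL-10 blockade and DNBS C3ar1 passed the threshold, while C5ar1 and C5ar2 did not. The part of neutrophils in the receptor results was not tested.

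Itgb2 is the beta chain that Itgam and Itgax pair with to form complement receptors 3 and 4, which bind fragments of C3b. Itgb2 was at 15.3, 18.2 and 17.4 CPM in the wild-type controls, at 57.5, 62.5 and 295 CPM in DSS, at 24.8, 29.1 and 34.4 CPM in DNBS and at 54.0, 52.5, 81.7 and 50.0 CPM in IL-10 blockade. Itgb2 stood at 5.75, 7.58 and 9.74 CPM in the Rag2-/- controls and at 39.7, 52.3, 43.2 and 29.2 CPM in TRUC. Itgb2 measured 7.54, 10.2 and 8.61 CPM in the Rag1-/- controls, 158, 102 and 102 CPM in TCT and 25.6, 34.0 and 18.7 CPM in anti-CD40. Itgb2 lay above all controls in each model, and DSS mouse 8 was the highest of all mice. Itgb2 rose, with a log2 fold change of 3.78 ± 0.46 (SE) in TCT, 2.41 ± 0.43 in TRUC, 1.56 ± 0.43 in anti-CD40, 3.02 ± 0.43 in DSS and 1.81 ± 0.40 in IL-10 blockade, and edgeR adjusted p from 9.47e-07 to 0.0125. Itgb2 did not pass the threshold in DNBS at 0.79 ± 0.41, with adjusted p of 0.242. Itgb2 in TCT was at 2.83 ± 0.43 against the wild-type controls (edgeR adjusted p = 5.55e-05). Itgam was at 2.44, 4.40 and 2.30 CPM in the wild-type controls, at 11.3, 14.02 and 48.9 CPM in DSS, at 6.03, 8.14 and 5.29 CPM in DNBS and at 6.91, 7.59, 7.29 and 11.9 CPM in IL-10 blockade. Itgam stood at 1.59, 1.76 and 2.27 CPM in the Rag2-/- controls and at 7.01, 6.94, 6.51 and 4.07 CPM in TRUC. Itgam measured 2.59, 2.36 and 1.89 CPM in the Rag1-/- controls, 13.97, 13.6 and 11.7 CPM in TCT and 3.48, 2.49 and 2.87 CPM in anti-CD40. Itgam, the CD11b gene, overlapped its controls in anti-CD40 only. Itgam rose, with a log2 fold change of 2.51 ± 0.41 (SE) in TCT, 1.70 ± 0.40 in TRUC, 3.00 ± 0.41 in DSS and 1.45 ± 0.38 in IL-10 blockade, and edgeR adjusted p from 1.2e-05 to 0.00285. Itgam did not pass the threshold in anti-CD40 at 0.36 ± 0.43 and DNBS at 1.08 ± 0.40, with adjusted p from 0.0996 to 0.586. Itgax, the CD11c gene, had 25.1, 27.3 and 17.4 CPM in anti-CD40 against 10.3, 8.47 and 10.3 CPM in its controls, and its group means ran from 9.70 CPM in the Rag1-/- controls to 54.7 CPM in TCT. Itgax rose, with a log2 fold change of 2.50 ± 0.39 (SE) in TCT, 1.64 ± 0.37 in TRUC, 1.26 ± 0.38 in anti-CD40, 1.75 ± 0.38 in DSS and 1.41 ± 0.36 in IL-10 blockade, and edgeR adjusted p from 2.97e-05 to 0.0209. Itgax did not pass the threshold in DNBS at 0.56 ± 0.38, with adjusted p of 0.364. In anti-CD40 the call of Itgb2 was lost without anti-CD40 mouse 7 (adjusted p = 0.0758) and that of Itgax without Rag1-/- control mouse 3 or anti-CD40 mouse 6 or 7 (up to 0.0925). Without DSS mouse 8 the log2 fold change in DSS was 1.82 for Itgb2, 2.04 for Itgam and 0.95 for Itgax, each still past the threshold. Gm49368 covers 68.7% of the exon bases of Itgam and had at most 3 counts in any mouse, so the level of Itgam is uncertain in the same way.

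Vsig4, the complement receptor of the immunoglobulin family found on tissue macrophages, was rare. Vsig4 was at 0.305, 1.07 and 0.738 CPM in the wild-type controls, at 1.01, 1.71 and 1.04 CPM in DSS, at 2.51, 0.775 and 0.426 CPM in DNBS and at 0.253, 0.104, 0 and 0 CPM in IL-10 blockade. Vsig4 stood at 0.0885, 0.230 and 0.151 CPM in the Rag2-/- controls and at 0.885, 0.267, 0.183 and 0.651 CPM in TRUC. Vsig4 measured 0, 0.0737 and 0.0861 CPM in the Rag1-/- controls, 0.961, 0.513 and 1.02 CPM in TCT and 0, 0 and 0 CPM in anti-CD40. IL-10 blockade lay below all wild-type controls and TCT above all Rag1-/- controls. Vsig4 rose, with a log2 fold change of 3.73 ± 0.97 (SE) in TCT, and an edgeR adjusted p of 0.00532. Vsig4 fell, with a log2 fold change of -2.80 ± 0.83 (SE) in IL-10 blockade, and an edgeR adjusted p of 0.00750. Vsig4 did not pass the threshold in TRUC at 1.62 ± 0.80, DSS at 0.81 ± 0.60 and DNBS at 0.84 ± 0.60, with adjusted p from 0.104 to 0.395. Anti-CD40 mice had no read of Vsig4 and their controls at most 1, so no fold is given. The ratio of summed counts was 0.130-fold (95% exact counting interval 0.0333 to 0.371) in IL-10 blockade and 15.5-fold (95% exact counting interval 3.90 to 134) in TCT. Without IL-10 blockade mouse 1 the fitted log2 value was -4.08, and without mice 3 and 4 the adjusted p was 0.0945. Against the wild-type controls Vsig4 in TCT did not pass the threshold, at 0.22 ± 0.64 with an edgeR adjusted p of 0.823.

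**Figure D4:**
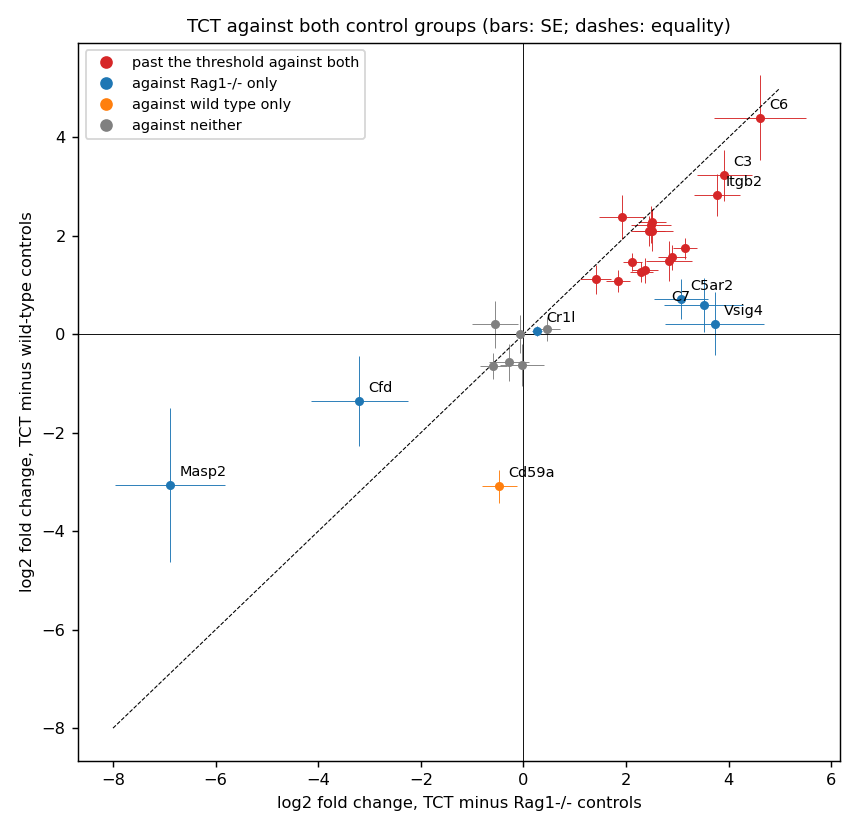
Log2 fold change of the 29 complement genes in TCT against the Rag1-/- controls (horizontal axis) and against the wild-type controls (vertical axis), with SE bars and a dashed line of equality. Red points pass the threshold against both, and the 6 blue points (Masp2, Cfd, C7, Vsig4, C5ar2 and Cr1l) against the Rag1-/- controls only, while Cd59a, in orange, passes against the wild type only, at -3.08 ± 0.33. Masp2 had no read in TCT, so its fitted value is no bound.

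Another 27 complement genes outside these 31 were examined, of which 19 were tested. In TRUC 3 of the 19 rose and 4 fell, in DSS 6 and 1, in DNBS 1 and 0, in IL-10 blockade 3 and 3, in TCT 3 and 0 and in anti-CD40 0 and 2. The shares of all genes that rose and fell were 22.4% and 23.4% in TRUC, 17.7% and 16.3% in DSS, 3.95% and 2.21% in DNBS, 27.2% and 26.1% in IL-10 blockade, 16.1% and 14% in TCT and 10.9% and 10.7% in anti-CD40. In TRUC and IL-10 blockade the 3 that rose come to 15.8%, below the share of all genes. Serping1, the C1 inhibitor, had group means of 85.6 CPM in the Rag1-/- controls to 361 CPM in DSS. Serping1 rose, with a log2 fold change of 1.58 ± 0.27 (SE) in TCT, 0.85 ± 0.25 in TRUC and 1.30 ± 0.27 in DSS, and edgeR adjusted p from 8.87e-05 to 0.00805. Serping1 did not pass the threshold in anti-CD40 at 0.52 ± 0.27, IL-10 blockade at 0.11 ± 0.25 and DNBS at 0.013 ± 0.26, with adjusted p from 0.163 to 0.986. Cd46, a cofactor for C3b cleavage, had its highest levels in the wild-type controls, at 4.50, 4.26 and 4.43 CPM. Cd46 fell, with a log2 fold change of -0.79 ± 0.28 (SE) in TRUC, -0.78 ± 0.28 in DSS and -1.56 ± 0.28 in IL-10 blockade, and edgeR adjusted p from 7.64e-05 to 0.0368. Cd46 did not pass the threshold in TCT at -0.67 ± 0.30, anti-CD40 at -0.65 ± 0.30 and DNBS at -0.80 ± 0.28, with adjusted p from 0.0879 to 0.117. Its call in DSS was lost without any 1 of the DSS or wild-type mice (adjusted p up to 0.0844), and that in TRUC without Rag2-/- control mouse 1 or TRUC mouse 3 or 4 (up to 0.133). C1s2, another C1s gene, was at 1 count in each wild-type control and at 5.05, 4.74 and 7.33 CPM in the Rag2-/- controls, and TCT had 2.53, 1.71 and 2.13 CPM. C1s2 rose, with a log2 fold change of 1.29 ± 0.30 (SE) in TRUC, 3.11 ± 0.64 in DSS and 3.10 ± 0.63 in IL-10 blockade, and edgeR adjusted p from 0.000286 to 0.00147. C1s2 did not pass the threshold in TCT at -0.85 ± 0.35, anti-CD40 at 0.44 ± 0.33 and DNBS at 1.82 ± 0.73, with adjusted p from 0.0677 to 0.355. Over summed counts C1s2 was 9.37-fold (95% exact counting interval 2.92 to 48.0) higher in DSS and 9.44-fold (95% exact counting interval 2.94 to 48.4) in IL-10 blockade, and the fitted value in DSS was 2.25 without DSS mouse 8. Fcna, ficolin A, moved both ways. Fcna rose, with a log2 fold change of 0.93 ± 0.31 (SE) in TCT and 1.99 ± 0.29 in DSS, and edgeR adjusted p from 2.37e-05 to 0.0278. Fcna fell, with a log2 fold change of -0.87 ± 0.28 (SE) in IL-10 blockade, and an edgeR adjusted p of 0.0113. Fcna did not pass the threshold in TRUC at -0.11 ± 0.28, anti-CD40 at 0.15 ± 0.32 and DNBS at 0.09 ± 0.29, with adjusted p from 0.786 to 0.881. The call of Fcna in TCT was lost without Rag1-/- control mouse 2 or 4 or TCT mouse 5 (adjusted p up to 0.207). With the wild-type controls as reference, TCT had 0.80 ± 0.26 for Serping1 and -1.24 ± 0.30 for Cd46, past the threshold in edgeR (adjusted p = 0.0243 and 0.00314), and -0.61 ± 0.30 for Fcna, of the opposite sign and not past it (0.120). On the same reference C1s2 was 28.5-fold (95% exact counting interval 9.38 to 142) higher over summed counts.

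An F test of the 6 contrasts in edgeR asked whether a gene changed alike in all models. Its contrast for TCT was the one against the Rag1-/- controls, which differ from TCT in H2-Ea-ps, Rag1 and Rag2. Changes differed for 25 of the 29 complement genes in edgeR, beside 60.5% of all genes tested, and for 23 to 26 when any 1 mouse was omitted. The 4 that did not pass were C4a (adjusted p = 0.172), Masp1 (0.0773), Cfb (0.391) and C8g (0.612). The smallest adjusted p were those of C3ar1 (5.4e-07) and C1qb (6.91e-07). With the Rag1-/- controls as its reference TCT had the largest rise of both, and C3ar1 did not pass the threshold in anti-CD40 at 0.46 ± 0.28. With the wild-type controls as reference TCT was at 1.56 for C3ar1 and 1.75 for C1qb, below DSS at 2.02 and 1.85. C1s1 (adjusted p = 5.3e-06 in edgeR) ranged from 0.021 ± 0.25 in DNBS to 2.37 ± 0.26 in TCT, which was at 1.30 against the wild-type controls. C2 (0.000744 in the same edgeR test) rose most in IL-10 blockade. Cd55 (0.000197, edgeR) rose in DSS and lay at -0.30 ± 0.25 in anti-CD40.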

How the data were processed

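Poly(A) RNA of mouse colon segments was sequenced, and the submitters' processing notes name Trimmomatic, HISAT2, HTSeq and the build GRCm38, with versions and strand setting not given in the sources used here. The deposited values were raw counts of reads per Ensembl gene, made by the authors, 1 column per mouse, with 92 spike-in rows that held 0 counts and were left out. Of 54532 genes, 20470 had no count, and 18616 with a mean count of at least 3 were tested. Symbols, exons and overlaps came from GENCODE M21, and promoters from RefSeq.

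Counts were scaled by TMM and fitted in edgeR 4.0.16 (R 4.3.3) with a mean per group for all 9 groups. The quasi-likelihood test was used two-sided, with p adjusted by Benjamini-Hochberg over every tested gene and a threshold of 0.05, and SE is the log2 fold change over the root of its F. Ratios of summed counts carry exact 95% binomial intervals. On counts simulated from these libraries, with 200 of 18616 genes changed by a log2 of 2, the test recovered from 79% (TCT) to 83.5% (TRUC). Each comparison of the data called more genes than that, so these figures hold for the simulated setting only. The 29 mice were taken as separate animals by their labels, and in 33 pairs of mice of 1 group the counts differed by more than sampling (lowest chi-square over degrees of freedom 3.42). Total counts per mouse set a floor of 3 counts. Alternatives were DESeq2 1.42.0, other scalings and filters, fits of 2 groups, a replicate block, an adjusted p of 0.01 and leaving out mice.

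The 31 genes and the lists were chosen with earlier results of these data known. Values in every mouse are given for genes chosen from each role and for any other among the 3 largest rises or falls past the threshold in a comparison, and for the rest by range and counts. Of the other complement genes, those past the threshold in 3 or more models are named. Some genes of these lists are not reported here.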

Additional observations from a re-analysis of the deposited data

Results flagged for a closer look

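In the groups of 4 mice, 62 sets of values of a complement gene were searched for a mouse far from the other three by Dixon's criterion, which chance meets in about 1 of 20 sets, and 8 met it. In TRUC, mouse 5 was low for C1qa at 142 CPM, with the others at 179 to 184, and for Itgam at 4.07 CPM, with the others at 6.51 to 7.01. In IL-10 blockade, mouse 3 was high for C1qa at 278 CPM (others 200.2 to 213), for C1qb at 205 CPM (163 to 167), for Itgb2 at 81.7 CPM (50.0 to 54.0) and for Masp2 at 0.172 CPM (others 0). This Masp2 value was below the 0.257 CPM that 3 counts make in that mouse. Any value above 0 meets the criterion where the others are 0. IL-10 blockade mouse 4 was high for C4a at 2.09 CPM (0.601 to 0.674) and for Itgam at 11.9 CPM (6.91 to 7.59). These were the IL-10 blockade mice with few Hoxd13 counts, and the part of the colon segment taken in these differences was not tested.

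The change against control differed between the 6 models for 25 complement genes by the F test in edgeR, with TCT taken against the Rag1-/- controls. In the classical pathway the adjusted p was 8.18e-06 for C1qa, 6.91e-07 for C1qb, 1.02e-05 for C1qc, 0.000162 for C1ra, 5.30e-06 for C1s1, 0.0103 for C1rl, 0.000744 for C2 and 2.43e-05 for C4b. Among the lectin, alternative and terminal genes the adjusted p in edgeR was 0.00511 for Masp2, 0.00835 for C3, 0.0299 for Cfd, 1.63e-05 for Cfp, 0.0146 for C6 and 0.000194 for C7. For the regulators it was 0.000197 for Cd55, 0.00241 for Cd59a, 0.0225 for Cr1l and 0.0452 for Clu. For the receptors it was 5.40e-07 for C3ar1, 1.17e-05 for C5ar1, 0.000119 for C5ar2, 4.94e-05 for Itgam, 0.00835 for Itgax, 5.12e-05 for Itgb2 and 0.000171 for Vsig4.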

How the results depend on the processing

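No call of a complement gene changed direction under any setting run. Of 92 calls in the 6 comparisons, 70 held without any 1 mouse and 22 were lost without some mouse. RLE size factors and filterByExpr lost 0, upper quartile scaling and DESeq2 lost 6 each, no filter on low counts and fits of 2 groups lost 5 each, and an adjusted p under 0.01 lost 21. With wild-type in place of Rag1-/- controls, 6 of the 22 calls in TCT were lost, and with Rag2-/- controls 1 of the 11 in anti-CD40. Without IL-10 blockade mice 3 and 4, an alternative chosen after seeing the data, 4 of 17 were lost.

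The genes lower in TRUC numbered 3, and 1 with no filter, 5 in the fit of 2 groups and 0 at 0.01. The 1 lower in DSS was 0 at 0.01. The 2 higher in DNBS became 1 under upper quartile scaling or at 0.01 and 8 in DESeq2, and those called there in the fit of 2 groups 1. The 3 lower in IL-10 blockade became 1 in the fit of 2 groups, in DESeq2, at 0.01 or without mice 3 and 4. The 2 lower in TCT became 1 in DESeq2 or at 0.01, and against the wild type 0 of them remained and 1 other gene, Cd59a, was lower. The 11 higher in anti-CD40 became 5 at 0.01. The 6 lower in Rag2-/- than in wild-type controls became 11 in the fit of 2 groups and 2 at 0.01. The cause was not tested. Apart from the change of control, the share of all genes called was not worked out for the other settings or with mice left out. A change in these counts thus cannot be told apart from a change in the calls among all genes.

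With 1 mouse left out at a time, the genes higher ranged from 15 to 17 in TRUC, 16 to 19 in DSS, 0 to 4 in DNBS, 12 to 14 in IL-10 blockade, 19 to 20 in TCT, 6 to 11 in anti-CD40 and 1 to 1 in Rag2-/- against wild-type controls. Those lower ranged from 0 to 3, 0 to 1, 0 to 1, 1 to 2, 2 to 2 and 0 to 0 in the same order of models, and from 2 to 5 between the controls. The calls retained ranged from 16 to 20 in TRUC, 16 to 20 in DSS, 0 to 2 in DNBS, 13 to 16 in IL-10 blockade, 21 to 22 in TCT and 6 to 11 in anti-CD40, and the F test from 23 to 26.

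Mice with the same number did not deviate together (correlations of -0.081 to 0.074). With 3 or 4 mice a group this cannot exclude that the numbers pair them. A replicate block lost 7 of 37 calls in TRUC and IL-10 blockade. It gave 0 lower in IL-10 blockade and 11 lower in Rag2-/- than in wild-type controls. The share of all genes called with the block was not worked out either. Depth limits Hc, Cfi, Masp2, Vsig4, C6 and C7, which rest on few counts, and 3 or 4 mice a group limit every comparison.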
